A study of Mus musculus with 6 samples.

Results

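The enzymes that cut the extracellular matrix and the proteins that hold them in check were followed in the mouse thoracic aorta: matrix metalloproteinases (Mmp), tissue inhibitors of metalloproteinases (Timp), cathepsins, Adamts and Adam proteases, and the plasminogen activators with their receptor and inhibitors. They were chosen by name, as all probes whose gene symbol in the platform annotation was 1 of 35 listed genes. The rule itself uses no measured value, but the list was drawn up with earlier results of these arrays known. This gave 32 of the 19053 genes named on the array, with 61 of its 45281 probes. Adamts5, Mmp15 and Serpine2 were not analysed here.

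Each array held RNA of thoracic aorta from male C57Bl/6 mice aged 3 to 4 months. NDST aortas (3 arrays) carried the genotype SM22αCre+Ndst-/-, and WT aortas (3 arrays) the genotype SM22αCre-Ndstwt/wt. The series describes the NDST mice as deficient in Ndst1, an enzyme that adds sulfate to heparan sulfate chains, with deletion driven by Cre from SM22α, a promoter active in smooth muscle, and its title names arterial elasticity as the question. WT mice carry no Cre, so an effect of Cre and one of Ndst1 loss cannot be told apart, and the Ndst1 transcript was not analysed here. Nothing in the labels states that each array had its own mouse. The p-values then reflect the spread among these arrays, which may be technical.

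Metalloproteinases and the related Adam and Adamts enzymes use zinc to cut collagens, elastin and proteoglycans, and most are made as inactive precursors. Timp proteins block the zinc site, and the membrane protein Reck restrains several of these enzymes at the cell surface. Cathepsins are mostly lysosomal proteases, some of which also cut elastin when secreted. Plasminogen activators turn plasminogen into plasmin, which degrades fibrin and can activate metalloproteinases. In the artery wall these enzymes are best known from the remodelling of elastic and collagen fibres.

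Intensities are given as log2 values after background correction and quantile normalization between arrays, and differences are NDST minus WT on that scale with the standard error from limma. A gene was tested if a probe was detected (detection p under 0.05) on at least 3 of the 6 arrays, and it is represented by its tested probe with the highest mean. It is said to have risen or fallen where its p, adjusted by Benjamini-Hochberg over all 17954 tested probes, was under 0.05. Levels of different genes are not comparable on these arrays, because each probe has its own brightness.

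Of the 27 members that could be tested, 4 rose and 3 fell in NDST aortas. The rises were the gelatinase Mmp2, the membrane metalloproteinase Mmp16, the tissue plasminogen activator Plat and Serpinf1, and the falls were the inhibitors Timp1 and Timp4 and the stromelysin Mmp3. Serpinf1 is listed among the inhibitors by its serpin family, although it has no inhibitory activity, and 0 of the other 5 tested inhibitors rose in limma, where Timp2 and Reck stood above 0 at an unadjusted p under 0.05. With median scaling in place of quantile normalization 5 members rose and 2 fell, and without normalization between arrays 7 rose and 1 fell. The members called made up 25.9% of those tested, where 7.35% of all 10076 tested genes were called, 4.61% higher and 2.74% lower. Counted by probe, 9 of 38 tested member probes passed, and 7.44% of all tested probes did. The median difference was 0.13 over the 27 members and 0.005 over all genes. Given how the list was made, these shares describe it and do not test it. Mmp13 and Mmp16 entered through their detection on the 3 NDST arrays alone, and without them 6 of 25 members were called.

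Timp1 passed under all 17 alternative settings, while the other 6 lost their call when single arrays were left out. With any NDST array left out, Timp1 was the single member called. Timp1 was called together with Mmp2, Mmp16 and Timp4 without WT replicate 1, with Serpinf1 without WT replicate 2, and with Mmp2, Plat and Serpinf1 without WT replicate 3. All 7 kept their direction in each of these fits.

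**Figure D1:**
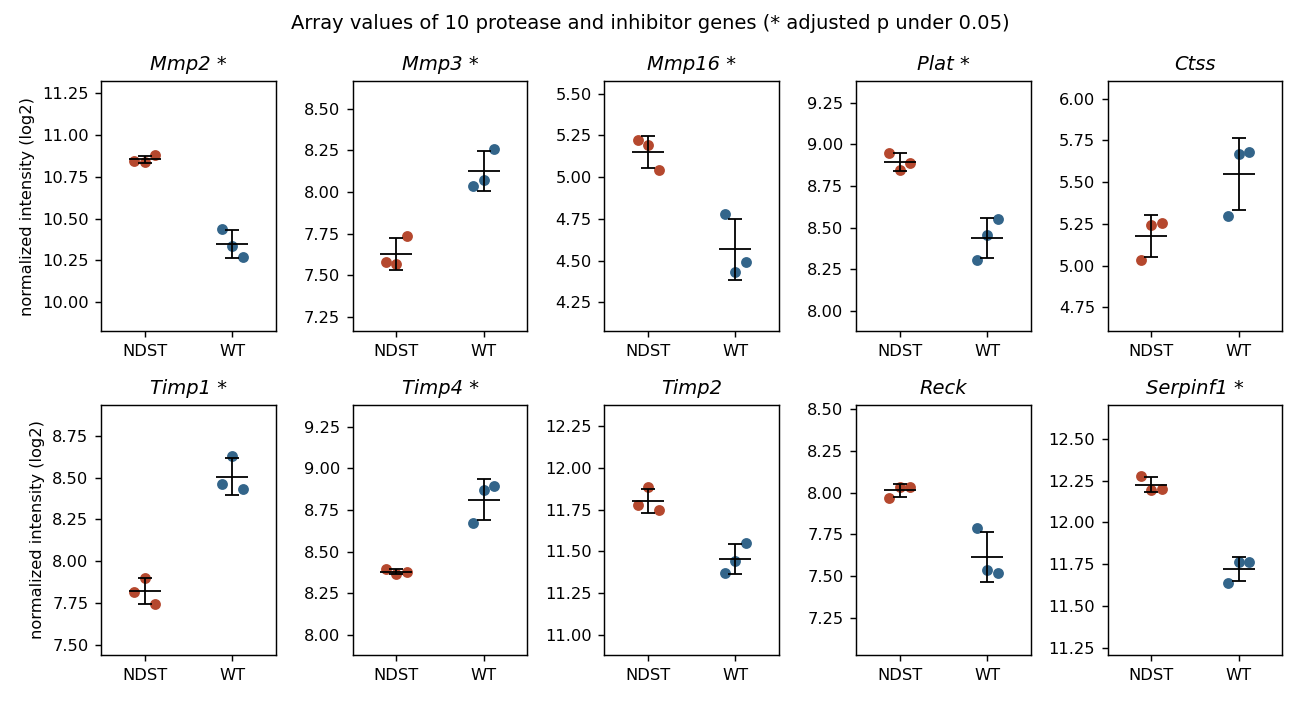
Normalized intensity (log2, vertical axis, each panel spanning 1.5 units) of 10 genes on the 3 NDST and the 3 WT arrays. Points are arrays, bars the mean and SD, and an asterisk marks an adjusted p under 0.05. In each panel the NDST and WT values do not overlap, with Timp1, Timp4, Mmp3 and Ctss lower and the other 6 higher in NDST aortas.

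Mmp2 encodes a gelatinase that cuts denatured collagen, type IV collagen and elastin, and it is made by fibroblasts and smooth muscle. Its values were 10.84, 10.84 and 10.88 in NDST aortas, against 10.44, 10.33 and 10.27 in WT aortas. All 3 NDST values lay above the WT values. The difference was 0.51 ± 0.08, or 1.42-fold (limma adjusted p = 0.0141, and between 0.0511 and 0.0558 when an NDST array or WT replicate 2 was left out).

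Mmp14, a membrane metalloproteinase that activates the Mmp2 precursor together with Timp2, measured 8.91, 9.05 and 9.05 in NDST aortas and 8.86, 8.70 and 8.81 in WT aortas. The groups did not overlap, but the difference of 0.21 ± 0.08 did not pass (adjusted p = 0.165). It passed under 4 of 17 alternatives, the lowest adjusted p being 0.0354 without normalization between arrays.

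Mmp16 is another membrane metalloproteinase able to activate Mmp2. It was detected on all 3 NDST arrays, at 5.22, 5.19 and 5.04, and on none of the WT arrays, where its probe gave 4.78, 4.43 and 4.49. Because the WT values lie below the detection limit, only a bound can be given: Mmp16 was at least 1.14-fold higher in NDST aortas (adjusted p = 0.0291), where the dim group is set at the lowest value of any detected probe on each array. It was tested only because the NDST arrays passed the detection filter, so its p does not support the difference. The call was lost without that filter (adjusted p = 0.0514) and with any array other than WT replicate 1 left out (0.066 to 0.0946). Its values sit close to background in both genotypes, and the other 2 of its 3 probes were detected on no array.

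Mmp3, or stromelysin, has a broad range of matrix substrates and is made by stimulated fibroblasts. It was measured by 3 probes, and with the brightest it had 7.58, 7.57 and 7.74 in NDST aortas and 8.04, 8.07 and 8.26 in WT aortas. It fell by 0.49 on the log2 scale, with a standard error of 0.09 (adjusted p = 0.0282). The second probe gave -0.45 ± 0.10 (adjusted p = 0.0454) and the third -0.39 ± 0.10 (adjusted p = 0.0559). On all 3 probes the NDST values lay below every WT value. The call was lost when any 1 of the 6 arrays was left out (adjusted p 0.0557 to 0.121).

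In the RefSeq gene table Mmp3 lies in a run of neighbouring metalloproteinase genes that also holds Mmp12, Mmp13, Mmp1a, Mmp1b, Mmp7, Mmp8, Mmp10, Mmp20 and Mmp27. Mmp1a, an interstitial collagenase of the mouse and not among the 35 genes, was tested with its brightest probe. Its other probes were detected on no array or on 1 NDST array. Mmp1a stood at -0.41 ± 0.10 (adjusted p = 0.0576), with 6.33, 6.40 and 6.30 in NDST aortas and 6.66, 6.65 and 6.95 in WT aortas. The collagenase Mmp13 differed the other way, at 5.37, 5.003 and 4.95 on the NDST arrays, where it was detected, and 4.88, 4.73 and 4.85 on the WT arrays, where it was not. Its difference did not pass (adjusted p = 0.203), and it was tested only through the NDST arrays. Against WT values held at the detection limit its mean was 1.10-fold higher. Its other probes were detected on no array, with means of 4.71 and 4.43 in NDST aortas and 4.74 and 4.45 in WT aortas. Mmp12, the macrophage elastase, was detected on no array. Mmp1b, Mmp7, Mmp8, Mmp10 and Mmp20 were likewise detected on no array.

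The remaining metalloproteinases showed no call. Mmp9, the gelatinase of neutrophils and macrophages, had 6.02, 6.19 and 5.68 in NDST aortas and 5.93, 5.90 and 5.93 in WT aortas, which overlap (0.04 ± 0.13). Mmp23 stood at 0.15 with a standard error of 0.075 (adjusted p = 0.274) with groups that did not overlap. Mmp11, also called stromelysin 3, stood at -0.08 ± 0.16, a sign that turned with median scaling (0.01). Neither probe of Mmp19 was detected on any array.

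Of the 4 Timp genes, Timp1 and Timp4 fell and Timp2 and Timp3 stood above 0 without passing. Each of the 4 kept its sign under all 17 alternatives. In the RefSeq table Timp1, Timp3 and Timp4 overlap the synapsin genes Syn1, Syn3 and Syn2. Timp1 is a secreted inhibitor that stimulated fibroblasts and the acute phase response raise. On its brighter probe Timp1 had 7.82, 7.90 and 7.74 in NDST aortas, against 8.46, 8.63 and 8.43 in WT aortas. It fell by 0.69 on the log2 scale, with a standard error of 0.09, which is 1.61-fold (adjusted p = 0.00752). The second probe of Timp1 read 7.65, 7.56 and 7.62 in NDST aortas and 8.53, 8.40 and 8.58 in WT aortas, a difference of -0.89 ± 0.08 or 1.86-fold (adjusted p = 0.0018). On both probes the highest NDST value lay more than 0.5 below the lowest WT value. Over the 17 alternatives the difference of Timp1 ranged from -0.79 to -0.49 and its adjusted p from 1.9e-06 to 0.0367.

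Timp4 is the family member best known from the heart, vessels and fat. It had 8.40, 8.37 and 8.38 in NDST aortas and 8.67, 8.87 and 8.90 in WT aortas. It fell by 0.43 on the log2 scale, with a standard error of 0.09 (adjusted p = 0.0316), a call lost under 9 of 17 alternatives, among them median scaling (-0.33, adjusted p = 0.0639) and every array left out except WT replicate 1 (adjusted p 0.0865 to 0.0966). In the same arrays 7 of 7 tested cardiac muscle markers rose, with a median difference of 3.33 (the log2 of their summed intensity was 13.72 to 13.78 in NDST aortas and 10.31 to 10.40 in WT aortas). White and brown adipocyte markers had a median of -0.08, with 0 of 7 past the limma threshold and 2 of 7 at an unadjusted p under 0.05. The part of these tissues in the Timp4 values was not tested.

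Timp2, which both inhibits metalloproteinases and helps Mmp14 to activate Mmp2, had 11.78, 11.89 and 11.75 in NDST aortas and 11.37, 11.44 and 11.55 in WT aortas. The groups did not overlap, and the difference of 0.35 ± 0.08 just missed the threshold (adjusted p = 0.0531). It passed under 8 of 17 alternatives, with adjusted p from 9.55e-05 to 0.144. Timp3, which binds to the matrix and also inhibits Adam17 and Adamts enzymes, stood at 0.18 ± 0.08 (adjusted p = 0.203) with its bright probe and 0.35 ± 0.14 (adjusted p = 0.170) with a second.

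Reck, the membrane-anchored inhibitor, had 7.97, 8.04 and 8.03 in NDST aortas and 7.79, 7.54 and 7.52 in WT aortas. Its 2 probes gave 0.40 ± 0.09 (adjusted p = 0.0511) and 0.38 ± 0.10 (adjusted p = 0.0692), and on both the NDST values lay above the WT values. Reck passed under 8 of 17 alternatives (adjusted p 0.00264 to 0.166).

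**Figure D2:**
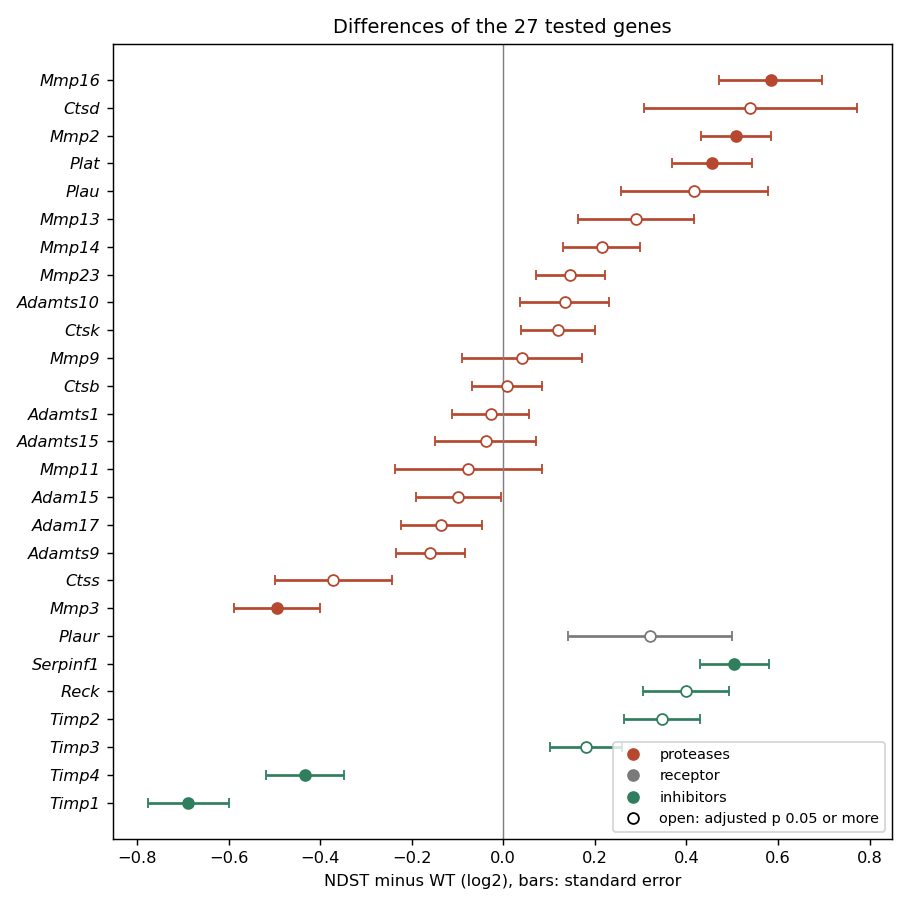
Difference NDST minus WT (log2, horizontal axis) of each of the 27 tested genes with its standard error, n = 3 arrays per genotype, proteases at the top, the receptor Plaur below them and inhibitors at the bottom. Filled points have an adjusted p under 0.05: Mmp16, Mmp2 and Plat to the right and Mmp3 to the left among proteases, and Timp4 and Timp1 to the left among inhibitors, a group that here also holds Serpinf1, to the right, which has no inhibitory activity.

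The sequences before the starts of the genes that fell are shown because AP-1 and Ets family factors (PEA3 is one of them) are the textbook regulators of stromelysin and Timp1 transcription. Promoter sequences were at hand for 22 of the 32 genes. None was at hand for Mmp2, Mmp16 and Plat, which also rose, so these could not be shown or searched. The 250 bases before the annotated start are given 5′ to 3′ on the gene's own strand, with Serpinf1, which rose, for comparison, and capitals mark matches to any of 4 motifs.

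Mmp3 (chr9:7445572-7445821, plus strand, GRCm38.p6): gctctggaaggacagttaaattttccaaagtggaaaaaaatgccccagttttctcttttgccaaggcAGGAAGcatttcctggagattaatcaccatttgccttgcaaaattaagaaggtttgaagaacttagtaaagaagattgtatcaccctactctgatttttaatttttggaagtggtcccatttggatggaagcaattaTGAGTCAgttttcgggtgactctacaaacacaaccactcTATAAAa

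Timp1 (chrX:20869916-20870165, plus strand, GRCm38.p6): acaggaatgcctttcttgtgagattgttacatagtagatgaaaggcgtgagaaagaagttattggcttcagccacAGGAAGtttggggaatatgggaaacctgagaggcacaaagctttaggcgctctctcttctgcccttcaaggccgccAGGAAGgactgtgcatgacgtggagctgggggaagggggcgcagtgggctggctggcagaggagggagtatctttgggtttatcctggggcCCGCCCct

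Timp4 (chr6:115252206-115252455, minus strand, GRCm38.p6): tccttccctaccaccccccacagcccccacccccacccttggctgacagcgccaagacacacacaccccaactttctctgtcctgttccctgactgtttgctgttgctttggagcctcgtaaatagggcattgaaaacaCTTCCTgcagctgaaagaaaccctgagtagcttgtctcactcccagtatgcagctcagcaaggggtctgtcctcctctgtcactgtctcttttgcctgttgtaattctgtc

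Serpinf1 (chr11:75422624-75422873, minus strand, GRCm38.p6): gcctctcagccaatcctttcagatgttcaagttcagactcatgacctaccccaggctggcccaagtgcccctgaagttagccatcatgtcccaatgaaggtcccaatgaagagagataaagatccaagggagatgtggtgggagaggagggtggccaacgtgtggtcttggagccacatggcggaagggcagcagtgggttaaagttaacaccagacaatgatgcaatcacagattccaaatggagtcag

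The motifs were searched on both strands as TGANTCA for AP-1, AGGAAG for PEA3, GGGCGG for the GC box and TATAAA for the TATA box, and none of the matches printed overlap. Mmp3 held 1 AP-1 match, 1 PEA3 match and 1 TATA match, whose first bases are at -46, -183 and -7 from the annotated start. Timp1 held 2 PEA3 matches and 1 GC box, Timp4 held 1 PEA3 match, and Serpinf1 held none of the 4 motifs. Over all 32851 promoters of this length in the table, 6.75% held the AP-1 motif, 29.5% PEA3, 32.7% the GC box and 12.4% the TATA motif. Of the 22 members, 4 held AP-1, 11 PEA3, 14 the GC box and 4 TATA. A match describes these letters and is no evidence that a factor binds there.

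Among the genes of plasminogen activation, Plat rose. Plat encodes tissue plasminogen activator, which endothelium releases. Its values were 8.95, 8.84 and 8.89 in NDST aortas, against 8.31, 8.46 and 8.55 in WT aortas. These do not overlap, and the difference was 0.46 ± 0.09 or 1.37-fold (adjusted p = 0.0295, and 0.0783 to 0.0935 when any array other than WT replicate 3 was left out). The other 2 probes of Plat were detected on no array. Plau, the urokinase-type activator, was dim and variable at 5.76, 5.91 and 5.53 in NDST aortas and 5.37, 5.02 and 5.56 in WT aortas, and its 0.42 ± 0.16 did not pass (adjusted p = 0.158). The urokinase receptor Plaur stood at 0.32 ± 0.18 and was detected on 3 NDST arrays and 1 WT array.

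Endothelial markers stood higher in the same arrays, with a median of 0.21 and 1 of 7 called, Vwf at 0.45 ± 0.09 (adjusted p = 0.0308). Their summed intensity was 12.99 to 13.06 in log2 in NDST aortas and 12.78 to 12.89 in WT aortas, and Kdr was too dim to be tested. Their part in the difference of Plat was not tested. In bulk tissue, more cells of a type and more RNA per cell cannot be told apart.

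Serpinf1 encodes pigment epithelium-derived factor, a serpin-family protein that does not inhibit proteases itself, binds collagen and heparan sulfate, and is known as an antiangiogenic factor. It had 12.28, 12.20 and 12.20 in NDST aortas and 11.63, 11.76 and 11.76 in WT aortas. It rose by 0.51 ± 0.08 on the log2 scale, or 1.42-fold (adjusted p = 0.0141). A second, dim probe designed to another transcript record stood at -0.06 ± 0.12 with overlapping groups, and the mean of both probes did not pass (0.22, adjusted p = 0.112). Leaving out any NDST array or WT replicate 1 raised the adjusted p to between 0.0511 and 0.0537.

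Mmp2, Mmp3, Timp1, Serpinf1 and Reck are expressed by fibroblasts, and markers of adventitial fibroblasts were higher in the same arrays. Of 7 tested, 4 rose (median 0.40), led by Pi16 (0.67 ± 0.08, adjusted p = 0.00601), Pdgfra (0.41 ± 0.07, adjusted p = 0.0230) and Lum (0.34 ± 0.08, adjusted p = 0.0423). Their summed intensity was 12.38 to 12.47 in log2 in NDST aortas and 11.97 to 12.01 in WT aortas. All 8 smooth muscle markers were measured, of which Lmod1 fell by 0.31 on the log2 scale (adjusted p = 0.0472). They summed to 15.56 to 15.63 in NDST aortas and 15.55 to 15.59 in WT aortas, and their median difference was 0.03. Mmp2, Serpinf1 and Reck, the last without a call, differed in the direction of the fibroblast markers, while Mmp3 and Timp1 fell. The part of fibroblast content in the differences of these 5 genes was not tested.

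None of the 4 tested cathepsins passed in limma, and 1 had an unadjusted p under 0.05. Ctsb, a lysosomal cysteine protease, had 13.17, 13.28 and 13.32 in NDST aortas and 13.23, 13.23 and 13.28 in WT aortas, a difference of 0.01 ± 0.08 whose sign turned under median scaling (-0.07). In the authors' processed table Ctsb was lower in NDST aortas (-0.18, adjusted p = 0.0390). Ctsk, a collagenase and elastase of osteoclasts and vascular cells, stood at 0.12 ± 0.08. Ctsd, the aspartic protease of lysosomes, varied most, with 6.18, 5.70 and 5.92 in NDST aortas and 5.83, 5.42 and 4.93 in WT aortas (0.54 ± 0.23, adjusted p = 0.201).

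Ctss, an elastase of macrophages and antigen-presenting cells, was at 5.03, 5.24 and 5.26 in NDST aortas and 5.30, 5.67 and 5.68 in WT aortas. These do not overlap, but the difference of -0.37 ± 0.13 did not pass (adjusted p = 0.126). Macrophage markers summed to 12.14 to 12.24 in log2 in NDST aortas and 12.11 to 12.20 in WT aortas, and 0 of 8 passed the limma threshold or an unadjusted p of 0.05 (median 0.001). Itgam was detected on no array. Ctsl was detected on 1 NDST array and on no WT array and was not tested.

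Of 4 Adamts and 2 Adam proteases tested, 0 passed in limma, also at an unadjusted p of 0.05. Adamts9, which cuts versican and aggrecan, stood at -0.16 ± 0.08 (adjusted p = 0.235), with its 2 probes both below 0. Adamts10, linked to fibrillin microfibrils, had probes at 0.13 ± 0.10 and -0.09 ± 0.19. Adamts1, another versican-cutting enzyme, had 3 probes between -0.03 and 0.22, and Adamts15 stood at -0.04 ± 0.11. The brightest probes of both turned sign under median scaling (0.11 for Adamts1 and 0.10 for Adamts15). Adamts4 was detected on 1 NDST array and was not tested.

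Adam17, the sheddase that releases tumour necrosis factor, had probes at -0.14 ± 0.09 and 0.12 ± 0.08 that pointed opposite ways. Adam15 stood at -0.10 ± 0.09, with 9.27, 9.28 and 9.10 in NDST aortas and 9.42, 9.32 and 9.20 in WT aortas, which overlap. Without normalization between arrays both Adam17 (0.03) and Adam15 (0.02) turned sign. The median of all genes stood at 0.14 in that setting, and the cause of the turn was not tested. Neither probe of Adam10 was detected on any array.

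**Figure D3:**
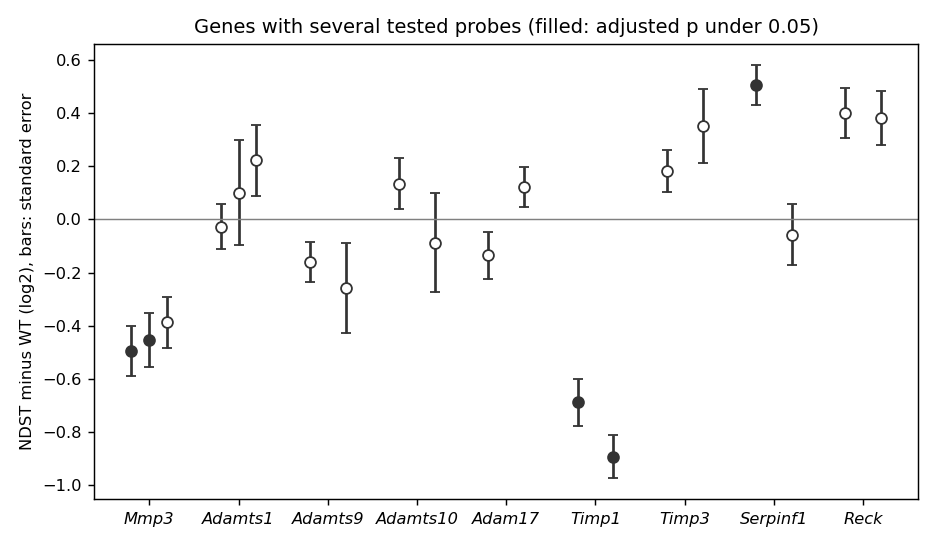
Difference NDST minus WT (log2, vertical axis) of each tested probe of the 9 genes with several tested probes, with standard errors, n = 3 arrays per genotype. Filled points have an adjusted p under 0.05. The probes of Mmp3, Timp1 and Adamts9 all lie below 0 and those of Timp3 and Reck all above, while the probes of Adam17, Adamts1, Adamts10 and Serpinf1 fall on both sides.

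Of the 9 members with several tested probes, 5 had all of them on 1 side of 0. Timp1 was the single member whose tested probes all passed.

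The balance of protease and inhibitor was followed within each array, as the log2 deviation of each gene from its mean on the WT arrays. Averaged over 20 proteases and the 6 genes listed as inhibitors, Serpinf1 included, the classes were followed side by side. Proteases stood at 0.10, 0.14 and 0.07 on the NDST arrays and 0.03, -0.02 and -0.02 on the WT arrays. Inhibitors stood at 0.06, 0.07 and 0.02 on the NDST arrays and at -0.01, 0.02 and 0.00 on the WT arrays. Proteases minus inhibitors gave 0.04, 0.06 and 0.05 on the NDST arrays and 0.05, -0.03 and -0.02 on the WT arrays, a mean difference of 0.05. The groups overlapped through WT replicate 1, and without that array the difference was 0.10. It turned to -0.02 without background correction and to -0.01 with detection required on all arrays. Without Serpinf1, a choice made after the values were seen, the 5 remaining inhibitors stood at -0.04, -0.01 and -0.07 on the NDST arrays and 0.00, 0.01 and -0.01 on the WT arrays. Proteases minus these inhibitors gave 0.14, 0.15 and 0.14 on the NDST arrays and 0.04, -0.03 and -0.01 on the WT arrays, which do not overlap. This difference of 0.14 stayed above 0 under every alternative, from 0.07 to 0.19. The result for the class thus depended on whether Serpinf1 was counted. It depended on the detection filter as well, since the 20 proteases include Mmp13 and Mmp16, which entered through the NDST arrays alone. Requiring detection on all arrays drops both and Ctsd, and the difference without Serpinf1 was then 0.08.

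For single enzymes and their inhibitors, 11 pairs were listed and 7 could be measured, and with 3 arrays against 3 an exact permutation test cannot go below p = 0.1. Mmp2 relative to Timp1 differed most, at 1.19, 1.10 and 1.30 on the NDST arrays and 0.14, -0.14 and 0.00 on the WT arrays. The ratio was 1.20 higher in NDST aortas (exact two-sided permutation p = 0.1, adjusted p = 0.175 over the 7 pairs). Mmp9 relative to Timp1 was 0.73 higher on the same terms (exact p = 0.1), although Mmp9 itself did not pass. Mmp3 relative to Timp1 overlapped between groups (0.19, exact p = 0.3).

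Relative to Timp2 neither of its partners stood apart. Mmp2 minus Timp2 was 0.18, 0.06 and 0.24 on the NDST arrays and 0.17, 0.00 and -0.17 on the WT arrays (difference 0.16, exact p = 0.2). Mmp14 minus Timp2 was -0.20, -0.17 and -0.03 on the NDST arrays and 0.16, -0.08 and -0.08 on the WT arrays (difference -0.13, exact p = 0.3). Mmp14 relative to Reck (-0.18) and Adam17 relative to Timp3 (-0.32) were lower on all 3 NDST arrays than on any WT array (exact p = 0.1 each), although the second probe of Adam17 stood above 0.

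**Figure D4:**
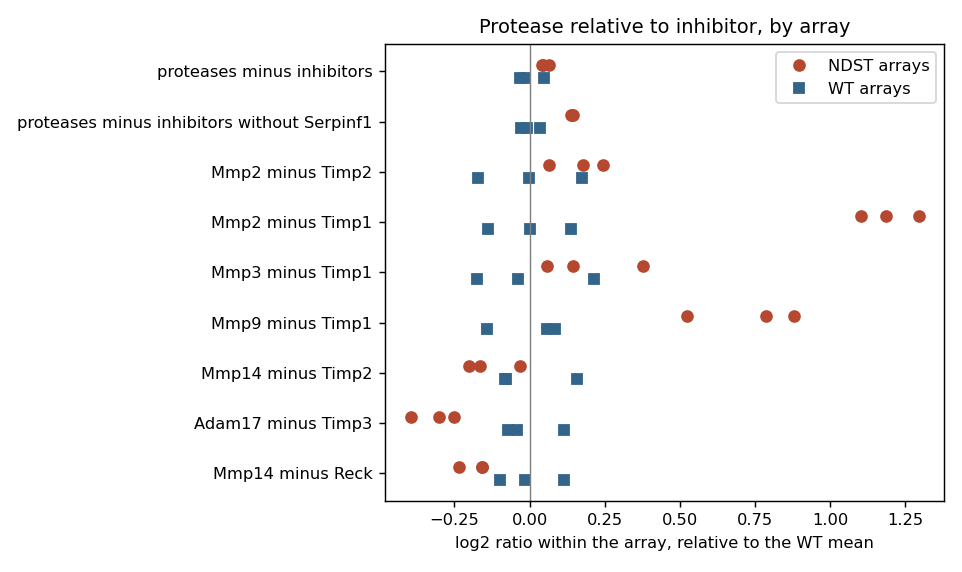
Log2 ratio of protease to inhibitor within each array, relative to the WT mean (horizontal axis), for the class means, with and without Serpinf1 among the inhibitors, and 7 pairs. Circles are the 3 NDST arrays and squares the 3 WT arrays. The class means overlap with Serpinf1 and lie apart without it, and the ratios of Mmp2 and Mmp9 to Timp1 lie to the right of every WT array.

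Other proteases and inhibitors of the same families were looked at in the same way. Of 101 further genes, 95 had a probe and 55 were tested, of which 4 rose and 1 fell (9.09%, against 7.35% of all genes), with a median of 0.03. These counts use the brightest tested probe of each gene. A dimmer probe of Ctsc (0.45 ± 0.09, adjusted p = 0.0305) and of Mme (-0.74 ± 0.14, adjusted p = 0.0295) passed, while their brightest probes did not. At an unadjusted p under 0.05 there were 24 of 55, against 26% of all genes, and 30 of 55 had groups that did not overlap, against 34.1% of all genes. The 5 calls became 19 without background correction and with the trended and robust variance model, and 18 in the authors' processed table. Serpina3n, an acute phase inhibitor of serine proteases, fell furthest, to 7.69, 7.42 and 7.60 in NDST aortas against 9.50, 9.50 and 9.50 in WT aortas (-1.93 ± 0.09, adjusted p = 6.13e-05). Serpina1e, detected on 3 NDST arrays and 1 WT array, is an alpha-1-antitrypsin paralog whose transcripts are nearly alike within its family and may share the probe, with a difference of 1.01 ± 0.10 (adjusted p = 0.00277). Against WT values held at the detection limit it was 1.91-fold higher. Adamtsl2, a microfibril-associated protein without protease activity detected on 3 NDST arrays and 1 WT array, stood at 0.85 ± 0.15 (adjusted p = 0.0230), or 1.71-fold against the detection limit. Both Serpina1e and Adamtsl2 were tested only through the NDST arrays. The 4 rises and the share of 9.09% include them, so that share does not show more calls than among all genes. Klk10, detected on 3 NDST and 2 WT arrays, rose by 0.53 ± 0.12 (adjusted p = 0.0497), or 1.40-fold against the detection limit. Klk10 is also among the 4 rises and would not have reached the detection filter through its WT arrays. The carboxypeptidase Cpe rose by 0.30 ± 0.07 (adjusted p = 0.0497). Adamtsl2, Klk10 and Cpe lost the threshold under 5, 11 and 10 alternatives, while Serpina1e and Serpina3n passed under all that could be run. Cst3, the main secreted inhibitor of cathepsins, stood at 0.21 ± 0.07 and did not pass (adjusted p = 0.131).

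Of the matrix substrates of these enzymes, 17 of 18 tested stood above 0, and 6 rose and 0 fell in limma (median 0.25), led by Fbln1 (0.49 ± 0.07, adjusted p = 0.0126), Col1a2 (0.52 ± 0.09, adjusted p = 0.0259) and Fbln2 (0.44 ± 0.09, adjusted p = 0.0300). Of all genes tested 5142 of 10076 stood above 0, 4.61% rose and 2.74% fell. At an unadjusted p under 0.05 there were 11 of 18 substrates, against 26% of all genes. Adventitial fibroblast markers, with Lum in both lists, rose in the same arrays (4 of 7, median 0.40), and their part in the substrates was not tested. Acan and Bcan, proteoglycans cut by Adamts enzymes, were too dim to be tested.

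**Figure D5:**
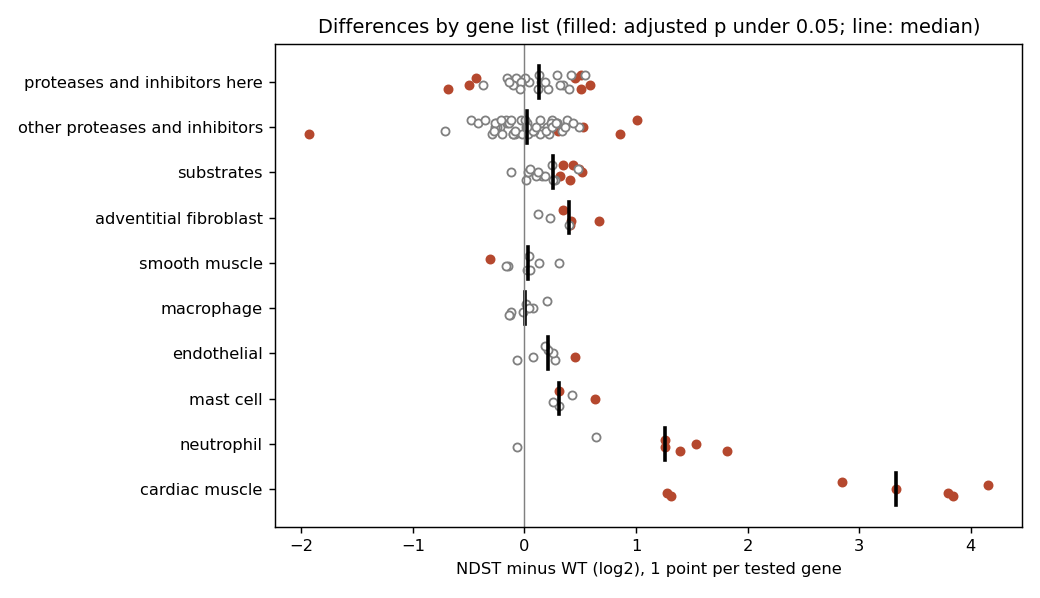
Difference NDST minus WT (log2, horizontal axis), 1 point per tested gene, for the proteases and inhibitors described here, further genes of these families, matrix substrates and markers of cell types. Filled points have an adjusted p under 0.05 and black lines are medians, which are 0.13 for the members, 0.25 for substrates, 0.40 for adventitial fibroblasts and 3.33 for cardiac muscle.

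Markers of neutrophils and mast cells differed as well. Of 7 tested neutrophil markers 5 rose (median 1.26), led by S100a8 (1.40 ± 0.08). Ngp and Camp were detected on no WT array and were at least 1.97-fold and at least 2.70-fold higher, and without them 3 of 5 rose (median 1.26). The summed intensity of all 7 was 10.51 to 10.52 in log2 in NDST aortas and 9.19 to 9.24 in WT aortas. The groups of Mmp9, which neutrophils store, overlapped. Mast cell markers, with 5 tested, had 2 that rose, Kit (0.63 ± 0.08) and Tpsb2 (0.31 ± 0.07). All 5 stood above 0 (median 0.31) and had an unadjusted limma p under 0.05, against 26% of all genes. T and B lymphocyte markers had a median of 0.20 with 0 of 4 past the limma threshold, also at an unadjusted p of 0.05. The part of leukocytes in the values of the members was not tested.

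Over all tested members 15 of 27 genes had NDST values that did not overlap the WT values, and 34.1% of all tested genes did. Besides the 7 called these were Mmp13, Mmp14, Mmp23, Ctss, Adamts9, Timp2, Timp3 and Reck. At an unadjusted p under 0.05 there were 12 of 27 members, against 26% of all genes. Mmp13 and Mmp16, detected on the NDST arrays alone, are among the 15, and Mmp16 is among the 12. The detection filter favours a separation of such genes, so these counts describe the list and do not test it.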

How the data were processed

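Per the file headers, the deposited table of non-normalized values gives for each probe and array an intensity on a linear scale and a detection p-value. GenomeStudio is named, without version, in the submitters' processing notes; a second deposited table of intensities, scaled by the authors in a way not given in the sources used here, served as an alternative. Array medians were 130.0 to 141.5 and 17549 to 18619 probes were detected on each; precision is limited by having 6 arrays. With limma 3.58.1 in R 4.3.3, neqc corrected the background from the detection p-values (offset 16), quantile-normalized and took log2; 17954 of 45281 probes were kept. lmFit and eBayes compared NDST with WT in a two-sided test whose p-values were adjusted by Benjamini-Hochberg over every kept probe. Because of the offset, fold changes of dim probes are understated. The annotation gave 1 gene for 34885 probes, several for 18 and none for 10378; 10 symbols were updated through RefSeq. The steps were also run on simulated data, where all probes had the spread of bright ones plus background noise. That run is no support for any single difference given here. Members and lists were chosen with earlier results of these data known. Given by array were members that passed, or whose groups did not overlap at a difference of at least 0.3, and up to 3 examples per family; named were further proteases that passed, and of other lists up to 3 that passed, by smallest p. Mmp1a, Cst3, the dimmer probes of Ctsc and Mme, and undetected genes of the Mmp3 neighbourhood or of marker lists were named after their values were seen. Background correction, offset, normalization, filter, probe summary, variance model, array weights, replicate block and each array left out were varied.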

Additional observations from a re-analysis of the deposited data

How the results depend on the processing

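Choices were changed 1 at a time in 17 settings, where the variance model changed its trend and its robustness together. The 7 called members (4 higher, 3 lower) became 11 (8 higher, 3 lower) without background correction, 11 (7 higher, 4 lower) in the authors' processed table and 11 (8 higher, 3 lower) with the trended and robust variance model. They became 3 (2 higher, 1 lower) without a detection filter, where more probes share the adjustment, and 8 (7 higher, 1 lower) without normalization between arrays. Same-numbered NDST and WT arrays did not deviate together (correlations -0.015 to 0.02). With 3 arrays per genotype this cannot exclude that they were handled in pairs. The fit with the replicate block called 1 member (0 higher, 1 lower) and 364 probes, with fewer degrees of freedom. With 1 array left out, 1 to 4 members were called (0 to 3 higher, 1 to 2 lower), 2 to 3 further proteases and 404 to 532 probes, against 1336 probes with all arrays. Called probes numbered 3048 without background correction, 2190 with an offset of 50, 2711 without normalization, 3493 in the authors' table, 3086 with the trended and robust variance model and 722 without a filter. The share of called probes that were higher was 58.1%, but 82.9% with median scaling, 88.9% without normalization and 41.5% in the authors' table, where the cause was not tested. The 5 called further proteases became 19, 13, 12, 18, 19 and 3 under the same settings in that order, 9 with detection on all arrays and 10 with probes of a gene averaged. The difference of proteases minus inhibitors (0.05) moved to -0.0188 without background correction and ranged from 0.0363 to 0.1033 with 1 array left out. The cause of these moves was not tested. With detection on all arrays the difference was -0.014, where the filter dropped the proteases Mmp13, Mmp16 and Ctsd and no inhibitor. Leaving Serpinf1 out of the inhibitors, added after seeing the data, gave 0.1417. Members near 0 turned sign. Without normalization Adam15 stood at 0.0202, Adam17 at 0.0255, Adamts1 at 0.155, Adamts15 at 0.1453, Ctsb at -0.0235 and Mmp11 at 0.0513. With median scaling Adamts1 stood at 0.111, Adamts15 at 0.1013, Ctsb at -0.0675 and Mmp11 at 0.0073. Adamts1 stood at 0.0981 with probes averaged, and Ctsb at -0.1759 in the authors' table. With 1 array left out Adamts1 ranged from -0.0834 to 0.0126, Adamts15 from -0.0957 to 0.059, Ctsb from -0.0267 to 0.0521, Mmp11 from -0.2252 to 0.0011 and Mmp9 from -0.069 to 0.1839.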
